A study of Mus musculus with 6 samples.

Results

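A set of 10 genes that tag or digest muscle proteins were followed in the hearts of mice fed a western diet (WD). They comprise 4 muscle ubiquitin ligase genes (*Trim63*, *Trim54*, *Trim55* and *Fbxo32*) and 6 autophagy genes (*Sqstm1*, *Map1lc3a*, *Map1lc3b*, *Gabarapl1*, *Becn1* and *Tfeb*). The 10 were chosen by symbol, each matched 1 identifier among the 54232 genes counted, and all 10 passed the filter on low counts. Heart ventricle RNA was sequenced from 3 WD + Tributyrin mice and 3 WD + Vehicle mice, all wild-type C57BL/6J. The mice had been on WD for 15 weeks before they were needle-fed Tributyrin, a triglyceride of butyrate, at 5 g/kg body weight, or vehicle, which the labels name PBS, 2 days on and 2 days off for 3 weeks. Every group was on WD, so the comparison has no lean or chow-fed arm, and ages are not given in the labels.

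Muscle removes proteins by 2 main routes. In the first, ubiquitin ligases mark single proteins for the proteasome. MuRF1, MuRF3 and MuRF2, encoded by *Trim63*, *Trim54* and *Trim55*, are RING-type ligases bound to the sarcomere, and atrogin-1, encoded by *Fbxo32*, is the substrate-binding F-box subunit of an SCF ligase. MuRF1 and atrogin-1 are known for their rise in wasting muscle, where FoxO transcription factors switch on their genes. In the second route, autophagy encloses cargo in a double membrane that carries lipid-anchored ATG8 proteins (LC3 and GABARAP) and delivers it to the lysosome. The counts measure transcripts, and neither ligase activity nor autophagic flux was analysed here.

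The counts per library ranged from 20369746 to 32734485. Heart muscle transcripts were abundant in every library, where the 7 cardiomyocyte markers summed to between 1172066 and 1335346 normalized counts (counts divided by the size factor of each library). Of these 7, 4 had an unadjusted p under 0.05 by edgeR's quasi-likelihood test, against 4.25% of all genes tested. Of the 4, *Tnnt2*, *Tnni3* and *Pln* were higher and *Actc1* lower with Tributyrin. The groups were apart in 2 of the 7, against 8.91% of all genes tested. Of 5 smooth muscle and pericyte markers 2, *Myh11* and *Cnn1*, had an unadjusted p under 0.05, both higher, and the groups were apart in 1. Of 6 fibroblast markers 4 were lower and 2 higher, with a median log2 fold change of -0.16. Among these 6, 1 had an unadjusted p under 0.05, and the groups were apart in 0. The 7 skeletal muscle markers, from a tissue that also uses these ligases, summed to only 38.8 to 89.5. The mitochondrial share was 23.6% to 26.5% with vehicle and 25.9% to 28.8% with Tributyrin. The 5 atrial markers summed to between 1414 and 4786 with vehicle and between 815.4 and 1687 with Tributyrin, with all 5 lower and 4 of 5 at an unadjusted p under 0.05, and vehicle replicates 1 and 2 the highest. In bulk tissue, fewer cells of a type and less RNA per cell cannot be told apart. Libraries also differed in the balance of long and short genes, measured as a median of log2 deviations from the mean of 6 mice. That median for the 970 genes with at least 10550 exonic bases, minus that for the 970 with at most 1915, was -0.29 in Tributyrin replicate 3 and -0.06 to 0.17 in the other mice. The part of these differences in the results was not tested. All 6 libraries held Y-linked transcripts, with 1571 counts or more of *Ddx3y* and at most 6 of *Xist*, as in male mice.

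The promoters of 2 MuRF genes are shown because *Trim63* is the textbook FoxO target among these ligases and *Trim54* is its close relative. The RefSeq promoter table (GRCm38.p6) held 6 of the 10 genes, namely *Trim63*, *Trim54*, *Gabarapl1*, *Map1lc3b*, *Sqstm1* and *Tfeb*, with 8 promoters in all, each of 300 bases (250 before and 50 after the start site). The 250 bases before each start site are given 5′ to 3′ on the plus strand. Capitals mark a FoxO-type motif (GTAAACA or, read on the other strand, TGTTTAC) or a TATA motif (TATAAA or TTTATA).
*Trim63*, chr4:134314870-134315119, GRCm38.p6: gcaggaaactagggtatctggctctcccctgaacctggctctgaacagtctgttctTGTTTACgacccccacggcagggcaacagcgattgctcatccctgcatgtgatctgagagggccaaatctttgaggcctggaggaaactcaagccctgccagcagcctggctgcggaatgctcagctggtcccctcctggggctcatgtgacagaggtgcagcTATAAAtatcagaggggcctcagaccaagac
*Trim54*, chr5:31116362-31116611, GRCm38.p6: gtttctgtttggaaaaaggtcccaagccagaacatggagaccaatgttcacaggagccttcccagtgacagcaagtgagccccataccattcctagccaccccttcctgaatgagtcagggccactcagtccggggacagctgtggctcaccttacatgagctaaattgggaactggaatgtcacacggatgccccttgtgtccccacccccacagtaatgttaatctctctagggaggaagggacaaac
The FoxO-type motif began 194 bases before the *Trim63* start site and the TATA motif 31 bases before it, and *Trim54* held neither. The *Trim63* stretch ends directly before the gene start in GENCODE, at 134315120. For *Trim54* the GENCODE gene start, 31116712, lies beyond the end of its promoter at 31116661. The bases directly before that start were not searched, so the 2 stretches are not alike in this respect. Among the 6 genes *Trim63* was the 1 gene with the FoxO-type motif, which 3.65% of all 32851 promoters of this length contain. The TATA motif was in the promoters of 2 of the 6 genes, *Trim63* and *Sqstm1*, and in 13.6% of all promoters. In *Sqstm1* it began 1 base before the start site and so ran across it, unlike the match in *Trim63*. The letters CACGTG, the E-box core that TFEB reads, were found in 0 of the 8 promoters and in 7.15% of all promoters. They read the same on both strands.

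None of the 10 genes was called different between Tributyrin treated and vehicle treated hearts. By the quasi-likelihood test of edgeR, with p adjusted by Benjamini-Hochberg over 14133 genes, 0 of the 10 passed an FDR of 10%, against 0% of all genes tested. At an unadjusted p under 0.05 there were again 0 of 10, against 4.25% of all genes, and DESeq2 and limma-voom also gave 0 of 10 at both thresholds, where DESeq2 called 0.043% of all genes. The adjusted p was 0.999 for each gene. The log2 fold changes (Tributyrin over vehicle) ran from -0.10 for *Trim63* to 0.09 for *Tfeb*. Every 95% interval lay between -0.32 and 0.29 on the log2 scale, or between 0.799 and 1.22 as a fold.

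**Figure D1:**
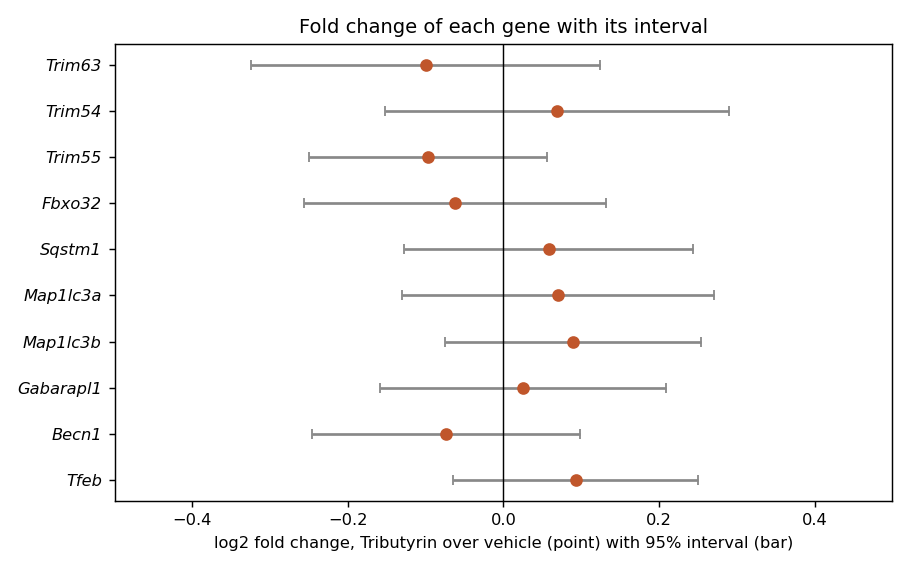
The log2 fold change of each gene, Tributyrin over vehicle (points), is plotted with its 95% interval from edgeR's quasi-likelihood fit (bars, 3 mice per group). All 10 intervals contain 0 and the widest, that of *Trim63*, reaches from -0.32 to 0.12.

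By direction, 3 of the 4 ligase genes had a lower estimate with Tributyrin and 5 of the 6 autophagy genes a higher one. In all, 6 of the 10 were above 0, against 49.6% of all genes tested, but when library size was the only scaling 2 were above 0, *Map1lc3b* and *Tfeb*, against 27.5% of all genes. The median log2 fold change of the 10 genes was 0.04 and became -0.03 under that scaling, where the median of all genes moved to -0.07. The sign of *Trim54*, *Sqstm1*, *Map1lc3a* and *Gabarapl1* changed with the scaling, and that of the other 6 genes did not.

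*Trim63* (ENSMUSG00000028834, a protein-coding gene at chr4:134315120-134329629, plus strand, GENCODE M21 on GRCm38) had the lowest estimate. MuRF1 attaches ubiquitin to proteins of the thick and thin filaments. Normalized counts were 5769, 5701 and 5343 in vehicle replicates 1, 2 and 3 (mean 5604 ± 228.5, SD, n = 3). They were 5895, 5365 and 4411 in Tributyrin replicates 1, 2 and 3 (mean 5224 ± 752.1, SD, n = 3). The Tributyrin mice held both the highest and the lowest value, so the groups overlapped. The log2 fold change was -0.10 (SE 0.10), with an adjusted p of 0.999 by edgeR's quasi-likelihood test, and it was 0.01 without Tributyrin replicate 3.

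*Fbxo32* (ENSMUSG00000022358, chr15:58175879-58214932, minus strand) is the other ligase gene of the wasting program, and atrogin-1 selects the proteins that its SCF complex marks. Counts were 3711, 4102 and 3990 with vehicle (mean 3934 ± 201.6, SD, n = 3). They were 3828, 4116 and 3348 with Tributyrin (mean 3764 ± 387.9, SD, n = 3). As for *Trim63*, the lowest of the 6 values was that of Tributyrin replicate 3, and replicate 2 lay just above the vehicle range. Its fold change was -0.06 (SE 0.09) on the log2 scale, and 0.02 without that mouse.

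*Trim54* (ENSMUSG00000062077, chr5:31116712-31137630, plus strand) and *Trim55* (ENSMUSG00000060913, chr3:19644474-19692421, plus strand) encode MuRF3, which binds microtubules, and MuRF2. *Trim54* was at 4091, 4618 and 3918 with vehicle and at 3805, 4793 and 4648 with Tributyrin, with a log2 fold change of 0.07 (SE 0.10). Its Tributyrin values spanned the vehicle range on both sides, and the log2 fold change was 0.171 without Tributyrin replicate 1 and 0.0038 without Tributyrin replicate 2. *Trim55* was at 2430, 2391 and 2446 with vehicle and at 2396, 2167 and 2225 with Tributyrin, with a log2 fold change of -0.10 (SE 0.07). For *Trim55* the vehicle mice were tightly grouped, 2 of the Tributyrin mice lay below all of them, and 1 lay among them. As CPM (counts scaled to the library total), *Trim55* was at 92.4 to 96.7 with vehicle and 79.7 to 89.4 with Tributyrin, which did not overlap (exact two-sided permutation p = 0.1, which is the lowest value possible for 3 mice against 3). As CPM 2 of the 10 genes, *Trim55* and *Becn1*, were apart, both lower with Tributyrin, against 11.5% of all genes apart in either direction and 9.72% lower. With library size as the only scaling, *Trim55* had an unadjusted p of 0.0431 and an adjusted p of 0.804 in edgeR's quasi-likelihood test, where 5.65% of all genes had an unadjusted p under 0.05 and the median of all genes was -0.07.

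The proportions among the 3 MuRF transcripts do not depend on library scaling. Per kilobase of exon, *Trim63* made up 33.9% ± 1.1 (SD, n = 3) of their sum with vehicle and 31.9% ± 4.7 with Tributyrin (exact permutation p = 0.6). The share was 35.0%, 32.8% and 34.0% in the vehicle mice and 36.9%, 31.3% and 27.6% in the Tributyrin mice. *Trim54* took 50.4% ± 1.9 with vehicle and 53.3% ± 5.5 with Tributyrin, and *Trim55* took 15.7% ± 1.0 and 14.8% ± 1.3. The groups overlapped in each share. The difference for *Trim63*, -2.03 percentage points, became 0.12 without Tributyrin replicate 3. With the length of the principal transcript in place of all exons, *Trim63* took 43.5% ± 1.2 with vehicle and 41.2% ± 5.2 with Tributyrin. *Trim54* then took 42.9% ± 1.8 and 45.8% ± 5.6, and the groups again overlapped. The order of these genes with vehicle thus depended on the length used.

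**Figure D2:**
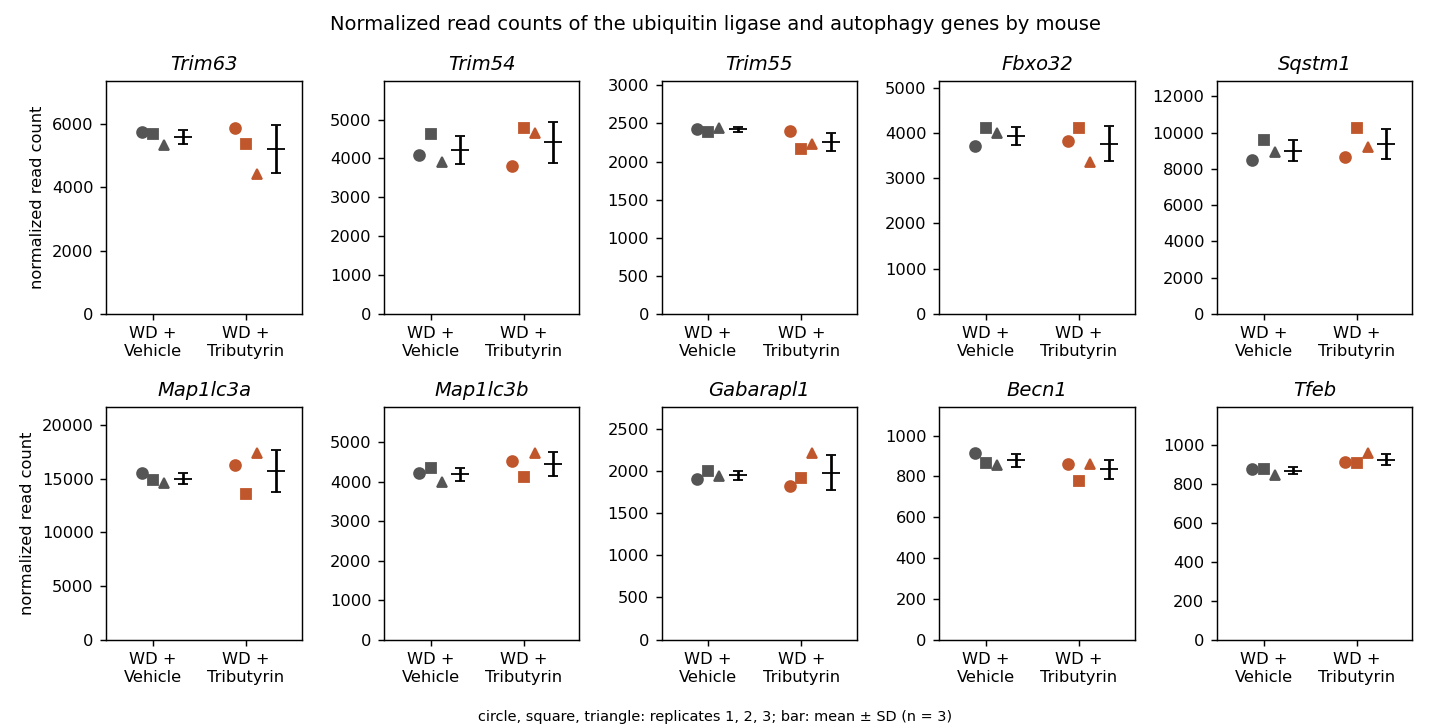
Normalized read counts of the 10 genes are plotted for each mouse (circle, square and triangle for replicates 1, 2 and 3), with the mean and SD of the 3 mice of each group. The groups overlap in 9 genes, and in *Tfeb* the 3 Tributyrin mice (906.4 to 957.8) sit above the 3 vehicle mice (847.3 to 878.5).

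*Sqstm1* (ENSMUSG00000015837, chr11:50199366-50210827, minus strand) encodes p62, the receptor that binds ubiquitin on one side and LC3 on the other and so joins both routes. Its counts were 8482, 9618 and 8943 with vehicle (mean 9014 ± 571.7, SD, n = 3). With Tributyrin they were 8643, 10279 and 9210 (mean 9377 ± 830.8, SD, n = 3). Of the Tributyrin mice 1, replicate 2, lay above the vehicle range. The log2 fold change was 0.06 (SE 0.08), and -0.02 without this mouse.

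*Map1lc3a* (ENSMUSG00000027602, chr2:155276297-155278073, plus strand) encodes LC3A, an ATG8 protein of the autophagosome membrane, and had the highest counts of the 10 genes. They were 15540, 14893 and 14575 with vehicle (mean 15003 ± 491.6, SD, n = 3). With Tributyrin they were 16299, 13579 and 17354 (mean 15744 ± 1948, SD, n = 3). The lowest and the highest mouse were both given Tributyrin, and the log2 fold change was 0.07 (SE 0.09). Without Tributyrin replicate 2 it was 0.165, with an unadjusted p of 0.0255 and an adjusted p of 0.463 in edgeR's quasi-likelihood test. That was the lowest adjusted p of any of the 10 genes under any setting. In that fit 1 of the 10 genes had an unadjusted p under 0.05, against 9.56% of all genes tested.

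*Map1lc3b* (ENSMUSG00000031812, chr8:121590361-121598760, plus strand) encodes LC3B, the form most often followed as a marker of autophagosomes. It was at 4218, 4346 and 4000 with vehicle and at 4525, 4116 and 4722 with Tributyrin, where 2 mice lay above the vehicle range. The log2 fold change was 0.09 (SE 0.07). Its exons overlap those of *Zcchc14* on the opposite strand, a gene with 1032 to 1807 counts per library, and the reads of the pair can be told apart only if the counting used strand, which the sources do not say.

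*Gabarapl1* (ENSMUSG00000030161, chr6:129533160-129542346, plus strand), an ATG8 gene of the GABARAP branch, was at 1902, 2003 and 1946 with vehicle and at 1822, 1919 and 2212 with Tributyrin. Tributyrin replicate 3 was the highest of the 6 mice and replicate 1 the lowest, and the log2 fold change was 0.02 (SE 0.08). Among the transcripts of the 5 ATG8 genes measured, per kilobase of exon, *Map1lc3a* took 76.1% ± 1.3 (SD, n = 3) with vehicle and 76.1% ± 1.8 with Tributyrin. *Map1lc3b* took 3.34% ± 0.08 and 3.40% ± 0.13 (exact permutation p = 0.6), and *Gabarapl1* 5.80% ± 0.21 and 5.66% ± 0.53. The makeup of the ATG8 pool overlapped between groups for each of the 5 genes. With the length of the principal transcript in place of all exons, *Map1lc3b* took 8.44% ± 0.18 with vehicle and 8.59% ± 0.28 with Tributyrin.

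*Becn1* (ENSMUSG00000035086, chr11:101285952-101302286, minus strand) encodes Beclin 1, a subunit of the class III PI3-kinase complex that starts the autophagosome membrane. Counts were 912.6, 865.4 and 856.0 with vehicle and 862.2, 777.6 and 861.5 with Tributyrin. All but Tributyrin replicate 2 lay within the vehicle range, and the log2 fold change was -0.07 (SE 0.08). As CPM, *Becn1* was at 33.8 to 34.7 with vehicle and 29.6 to 32.2 with Tributyrin, which did not overlap (exact two-sided permutation p = 0.1), as for 9.72% of all genes in this direction.

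*Tfeb* (ENSMUSG00000023990, chr17:47737030-47792419, plus strand) encodes the transcription factor that drives lysosome and autophagy genes. Counts were 877.3, 878.5 and 847.3 with vehicle (mean 867.7 ± 17.7, SD, n = 3). With Tributyrin they were 911.7, 906.4 and 957.8 (mean 925.3 ± 28.3, SD, n = 3). Every Tributyrin mouse lay above every vehicle mouse (exact two-sided permutation p = 0.1, and 0.778 after Benjamini-Hochberg adjustment over the 10 genes). Such a separation was found in 1 of the 10 genes and in 8.91% of all genes tested. The mean was 6.64% higher with Tributyrin, and the log2 fold change was 0.09 (SE 0.07). As CPM the difference was 1.43% and the groups overlapped, at 33.4 to 34.6 with vehicle and 34.0 to 34.6 with Tributyrin.

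Between genes, levels were compared per kilobase. With the length of the longest principal transcript, *Map1lc3a* was the most abundant at 13825 normalized counts per kilobase (mean of 6 mice), followed by *Sqstm1* at 4514, *Trim54* at 3007 and *Trim63* at 2871. Then came *Map1lc3b* at 1707, *Gabarapl1* at 1081, *Trim55* at 902.7 and *Fbxo32* at 551.8, with the regulators *Tfeb* at 390.5 and *Becn1* at 196.1 last. Neighbours in this order did not overlap over the 6 mice, except *Trim54* and *Trim63*, where *Trim54* was higher in 3 of 6. Per kilobase of all annotated exons, *Map1lc3b* fell to 574.9, below *Trim55* and level with *Fbxo32*, since its exons add up to 7517 bases against 2532 in the principal transcript. *Map1lc3a* stayed first and *Becn1* last by both lengths.

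**Figure D3:**
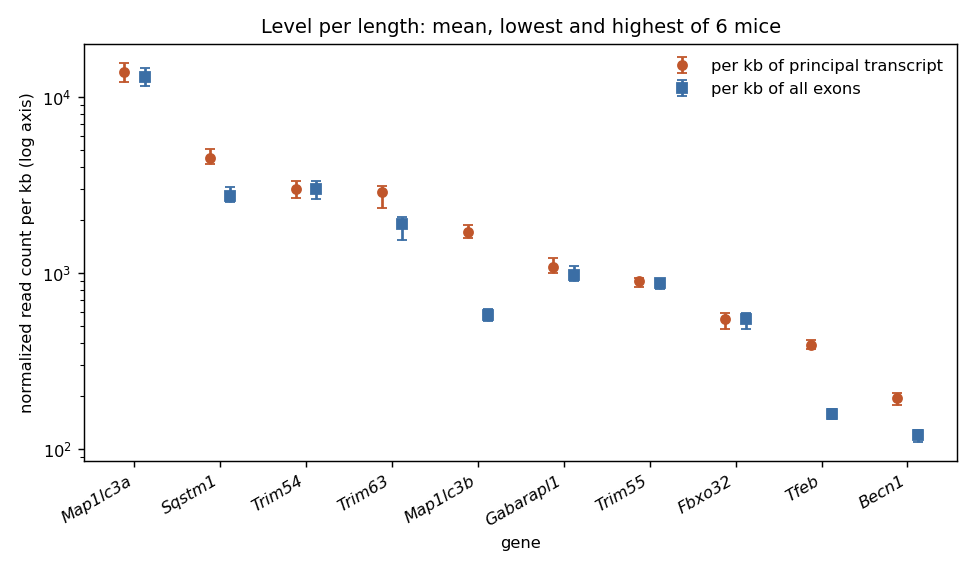
Normalized read counts per kilobase are plotted on a log axis for the 10 genes, with the mean of 6 mice (points) and the lowest and highest mouse (bars), by principal transcript (circles) and by all annotated exons (squares). *Map1lc3a* stands above the rest at 13825 per kilobase of principal transcript, and the choice of length matters most for *Map1lc3b*, *Tfeb* and *Sqstm1*.

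The spread between mice of the same group was smaller with vehicle than with Tributyrin in each of the 10 genes. Its median coefficient of variation was 3.77% with vehicle and 9.54% with Tributyrin, against 8.29% and 10.8% over all genes tested. Raw counts of the 10 genes ran from 682 to 19207, for which the relative SD from counting is no more than 3.83%. The coefficient of variation between mice was 2.04% with vehicle and 3.06% with Tributyrin for *Tfeb*, no larger than its counting error, and 4.08% and 14.4% for *Trim63*, where counting gives at most 1.61%. The highest mouse was above the lowest by a ratio of at most 1.34, that of *Trim63*. The within-group SD of *Trim63* on the log2 scale was 0.16, higher than that of 52.0% of all genes tested, while that of *Tfeb* was 0.04, higher than that of 1.90%. Each Tributyrin mouse gave extreme values. Replicate 3 was lowest for *Trim63* and *Fbxo32*, by 0.29 and 0.20 on the log2 scale below the mean of 6 mice for those genes, and highest for *Map1lc3a*, *Map1lc3b*, *Gabarapl1* and *Tfeb*. Replicate 2 was highest for *Trim54*, *Fbxo32* and *Sqstm1* and lowest for *Map1lc3a*, *Trim55* and *Becn1*. Replicate 1 was highest for *Trim63* and lowest for *Trim54* and *Gabarapl1*. On the measure of long against short genes given above, replicates 3 and 2 were the lowest and the highest, at -0.29 and 0.17. Replicate 1 was at -0.06 on it.

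**Figure D4:**
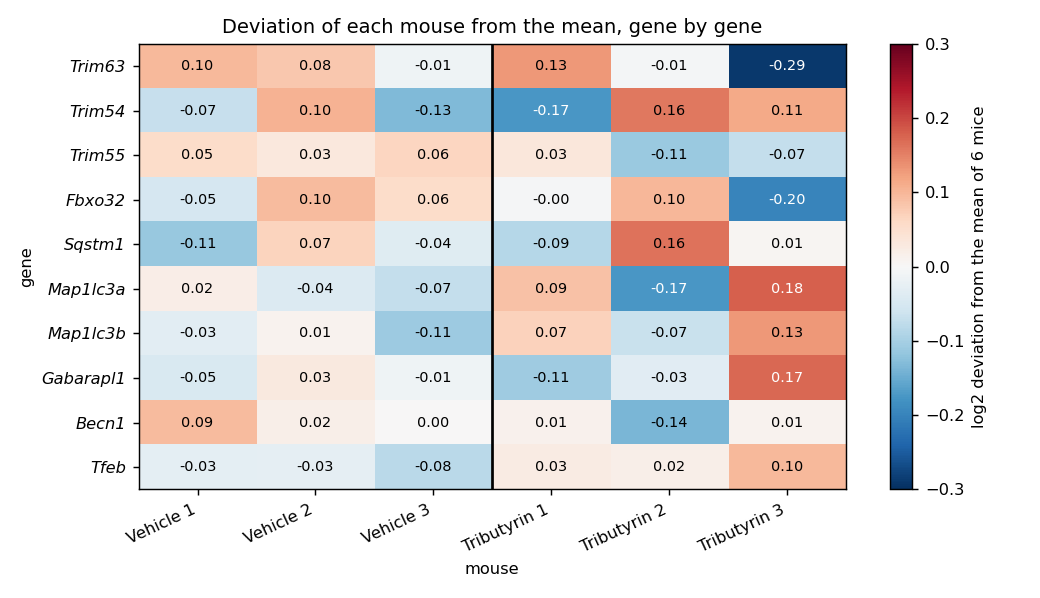
Each cell gives the log2 deviation of a mouse from the mean of the 6 mice for that gene (colour from -0.3 to 0.3). Tributyrin replicate 3 is low for *Trim63* (-0.29) and *Fbxo32* (-0.20) and high for *Map1lc3a* (0.18) and *Gabarapl1* (0.17), and the vehicle mice stay closer to 0.

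Of genes with related roles, 4 pairs were compared across the 6 mice. *Trim63* and *Fbxo32*, the FoxO targets, had a Pearson r of 0.67 (exact permutation p = 0.154, adjusted over 4 pairs 0.469) and a Spearman rho of 0.09 (exact permutation p = 0.919, adjusted 0.919). Without the 2 mice farthest from the *Trim63* median, Tributyrin replicates 1 and 3, r was -0.54 over 4 mice, too few to settle the relation. Of these 2 mice, Tributyrin replicate 3 was below the mean of 6 mice in both genes (-0.29 and -0.20, log2). Tributyrin replicate 1 was at 0.13 for *Trim63* and -0.0043 for *Fbxo32*. For *Map1lc3b* with *Gabarapl1*, r was 0.48 (exact permutation p = 0.339) and rho 0.20 (p = 0.714). For *Trim63* with *Trim54*, r was -0.49 (exact permutation p = 0.351) and rho -0.54 (p = 0.297), and for *Sqstm1* with *Map1lc3b*, r was -0.17 (exact permutation p = 0.749) and rho -0.09 (p = 0.919). In these 3 pairs the adjusted p of r was 0.469 or more and that of rho 0.919, and r without 2 mice was -0.42, -0.0089 and 0.04.

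The rest of both routes was described with 102 genes in 9 lists, of which 100 passed the filter. By the same edgeR test 0 of the 100 passed an FDR of 10%, by DESeq2 and limma-voom also 0, and at an unadjusted p under 0.05 there were 2, among them *Foxo1*, against 4.25% of all genes. Their median log2 fold change was 0.03, against -0.0013 over all genes tested. Of the 100, 62 were above 0, against 49.6% of all genes tested. When library size was the only scaling 23 were above 0, against 27.5% of all genes. Counts above 0 in the single lists below are from the main fit, so the share of 49.6% applies to them too. The groups did not overlap for 6 of the 100 genes, against 8.91% of all genes.

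The list of SCF core and ubiquitin supply had 14 genes, 10 above 0 and 4 below, with a median log2 fold change of 0.05. *Skp1a*, the SCF adaptor that holds F-box proteins such as atrogin-1, was at a log2 fold change of 0.12 (SE 0.07), and *Rps27a*, a ubiquitin and ribosomal protein fusion, at 0.14 (SE 0.08).

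**Figure D5:**
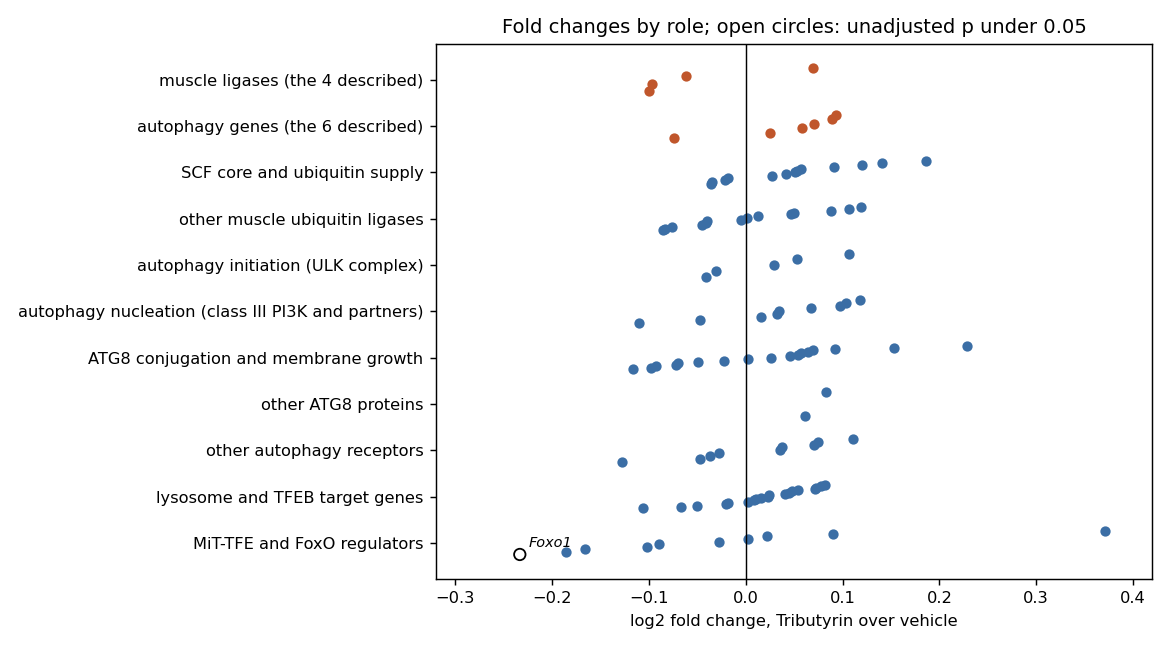
Log2 fold changes (Tributyrin over vehicle) of the 10 genes (orange) and of the other genes of both routes that are reported here (blue), by role, 1 point per gene. The open circle marks an unadjusted p under 0.05 and is that of *Foxo1* (-0.23).

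Of the 14 other muscle ubiquitin ligases, 7 were above 0 and 7 below, with a median of -0.0020. *Stub1*, which encodes the chaperone-linked ligase CHIP, was at 0.12 (SE 0.08), *Fbxo21* at 0.11 (SE 0.07) and *Fbxl22*, an F-box gene of the cardiac Z-disc, at -0.08 (SE 0.09). Each of the 14 had an unadjusted p of 0.156 or more in edgeR's quasi-likelihood test.

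The other steps of autophagy also held 0 genes at an unadjusted p under 0.05. Of the 5 genes of the ULK complex, which starts autophagy, 3 were above 0 (median 0.03). *Rb1cc1*, its scaffold, was at 0.11 (SE 0.07) with groups that did not overlap, while *Atg13* was at 0.05 (SE 0.07) and the kinase *Ulk1* at -0.04 (SE 0.07). Of the 9 genes that act with Beclin 1 in nucleation, 7 were above 0 (median 0.03), with *Pik3c3*, the lipid kinase itself, at 0.12 (SE 0.09) and *Ambra1* at 0.10 (SE 0.08), whose groups did not overlap. *Rubcn*, whose product restrains autophagy, was at -0.11 (SE 0.08).

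Of the 17 genes of ATG8 conjugation and membrane growth, 10 were above 0 (median 0.03). *Atg4a* and *Atg4b*, proteases that trim the ATG8 proteins, went opposite ways at 0.15 (SE 0.11) and -0.10 (SE 0.08), and *Atg5* was at -0.12 (SE 0.10). *Atg4b* was at 678.7, 663.8 and 664.7 with vehicle and 616.2, 626.8 and 630.9 with Tributyrin, which did not overlap. The other ATG8 genes were both above 0, *Gabarap* at 0.06 (SE 0.08) and *Gabarapl2* at 0.08 (SE 0.08). Of the 9 other receptors, 5 were above 0 (median 0.03), with the mitophagy receptors *Bnip3* at 0.11 (SE 0.08) and *Bnip3l* at 0.07 (SE 0.07) and the large adaptor *Wdfy3* at -0.13 (SE 0.13).

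Downstream of TFEB, 14 of 20 lysosome genes were above 0 (median 0.02), 0 were called by edgeR at the 10% FDR and 0 had an unadjusted p under 0.05. *Atp6v0d1*, a subunit of the proton pump, was at 0.08 (SE 0.07) and *Ctsd*, a lysosomal protease, at 0.08 (SE 0.09). The groups did not overlap for *Atp6v0d1*, the 1 such gene of the 20, against 8.91% of all genes tested. The lysosome list summed to between 97710 and 104853 normalized counts with vehicle and between 97476 and 106203 with Tributyrin.

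Among regulators of both routes, 4 of the 10 tested were above 0 (median -0.06). *Myog* had 0 counts in all 6 libraries and *Tfec* did not pass the filter. *Foxo1*, one of the FoxO factors that act on *Trim63* and *Fbxo32* in wasting muscle, was at 723.4, 821.9 and 700.7 with vehicle and at 607.8, 691.7 and 611.4 with Tributyrin. All Tributyrin mice lay below all vehicle mice, with a log2 fold change of -0.23 (SE 0.09, 95% interval -0.44 to -0.03), with an unadjusted p of 0.0315 and an adjusted p of 0.999 by edgeR's quasi-likelihood test. Without vehicle replicate 2 it was -0.16. The other FoxO genes overlapped between groups. *Foxo3* was at 3002, 4077 and 4014 with vehicle and at 2626, 4014 and 4625 with Tributyrin. *Foxo4* was at 2263, 2046 and 2162 with vehicle and at 2220, 2255 and 1997 with Tributyrin. *Foxo6* was at 188.1, 146.6 and 141.6 with vehicle and at 188.9, 136.1 and 96.4 with Tributyrin. *Smad3* was at -0.19 (SE 0.10) and *Mstn*, the muscle growth inhibitor myostatin, at 0.37 (SE 0.41) on 8.70 to 36.4 normalized counts, too few for a close estimate.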

How the data were processed

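Stranded mRNA libraries of heart ventricle, 1 per mouse, were sequenced as single-end reads of 50 bases. Per the labels and the methods of the study, the authors trimmed adapters (cutadapt 1.13), removed poor and rRNA reads, aligned with STAR to mm10 and counted with htseq-count (HTSeq 0.6.1p1). The deposited values are raw counts per Ensembl gene, with no rows that name no gene. Strandedness of counting and the gene model version were not given in the sources used here.

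Symbols, positions and exonic lengths came from GENCODE M21 (GRCm38), where 54165 of 54232 identifiers matched. Groups were compared with edgeR 4.0.16 (quasi-likelihood test, TMM, filterByExpr with min.count of 10 and min.total.count of 15, Benjamini-Hochberg over all genes) at an FDR of 10%. Standard errors are the log2 fold change over the square root of F. Normalized counts use the size factors of DESeq2 1.42.0. For single values, exact permutation tests (two-sided) were used. Principal transcripts are those tagged APPRIS principal. The sample titles name the diet, the treatment and a number, and each library was taken to be a separate mouse. The p-values weigh the difference between groups against the spread between these mice.

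The members and lists were chosen with earlier results of these data known. Genes named from a list were the 3 with the lowest unadjusted p, and the other FoxO genes were named beside *Foxo1*. Some listed genes stayed in the counts but are not reported here by name. The lists were SCF core and ubiquitin supply, other muscle ligases, ULK complex, nucleation, conjugation, other ATG8 proteins, other receptors, lysosome, and regulators, with marker lists for cell types. Alternatives were other scalings and filters, DESeq2, limma-voom 3.58.1, a robust prior, a replicate block and leaving out each mouse. The principal transcript length was added after the data were seen.

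On data simulated 3 times for Tributyrin against vehicle (14144 genes), the edgeR step recovered 10% of genes changed by 0.3 on the log2 scale, 48.7% at 0.5, 76% at 1 and 94.7% at 2. The 95% intervals held the true value for 95.3% to 96.6% of changed genes, and 11.3% of calls were false.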

Additional observations from a re-analysis of the deposited data

How the results depend on the processing

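Of the 10 genes, 0 passed an FDR of 10% under any alternative run. Across all genes 0 passed in edgeR, but 167 did with no filter on low counts, 11 with DESeq2 and, with each mouse left out, 0 to 3 (3 without Tributyrin replicate 3). Of the other genes of both routes 1 passed with no filter, and 0 to 1 with each mouse left out (1 without vehicle replicate 1). The labels do not say whether replicate numbers pair the mice. Deviations of same-numbered mice correlated at 0.21, 0.04 and 0.01, and those of the other pairs at -0.19 to 0.15. The highest of the latter was that of Tributyrin replicate 3 with vehicle replicate 2. With 3 mice per group these correlations cannot decide whether the mice were paired. With the replicate number as a block 2 genes passed across all genes and 0 of the 10.

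With library size alone 2 of the 10 genes were above 0 and their median was -0.0323. The log2 fold changes of 4 genes then changed sign, to -0.0038 for *Trim54*, -0.0144 for *Sqstm1*, -0.0050 for *Map1lc3a* and -0.0502 for *Gabarapl1*, and as CPM their differences were -0.218%, -0.982%, -0.336% and -3.38%. With each mouse left out, log2 fold changes ran from -0.191 to 0.0121 for *Trim63*, -0.133 to 0.0194 for *Fbxo32*, -0.0151 to 0.119 for *Sqstm1*, -0.00056 to 0.165 for *Map1lc3a* and -0.0546 to 0.0879 for *Gabarapl1*. The others kept their sign, at 0.0038 to 0.171 for *Trim54*, -0.135 to -0.0683 for *Trim55*, 0.0503 to 0.141 for *Map1lc3b*, -0.0945 to -0.0275 for *Becn1* and 0.0724 to 0.108 for *Tfeb*. For the first 5 genes, differences of normalized counts ran from -12.8% to 0.459%, -8.79% to 0.963%, -0.971% to 8.10%, -0.429% to 12.2% and -4.08% to 5.90%. The sign changed without Tributyrin replicate 3, or for *Sqstm1* without Tributyrin replicate 2. The number of genes above 0 ran from 5 to 6, their median from -0.0056 to 0.0664, the *Trim63* share difference from -4.52 to 0.124 percentage points and that of *Map1lc3b* from -0.0045 to 0.121. As CPM the Pearson correlations kept their sign but moved to 0.80 for *Trim63* with *Fbxo32*, 0.18 for *Map1lc3b* with *Gabarapl1*, -0.26 for *Sqstm1* with *Map1lc3b* and -0.16 for *Trim63* with *Trim54*. The causes were not tested. In simulated data with 14144 genes, 10% of changes of 0.3 on the log2 scale were called, so calls would mostly miss changes of that size among such genes. For the 10 genes themselves, the intervals of the main edgeR fit set a closer limit, but only under its TMM scaling. Only that of *Trim63* (-0.32 to 0.12) reached 0.3 in size, and the furthest bound of the other genes was 0.29, for *Trim54*. These intervals leave out the uncertainty of the scaling. With library size alone the lowest estimate of the 10 genes was -0.170, for *Trim55*, against -0.0972 in the main fit.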

Other observations

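The mice given Tributyrin differed more among themselves than the vehicle mice in these transcripts. The coefficient of variation of normalized counts was higher with Tributyrin in 10 of the 10 genes, and in 61.6% of all genes tested. Its median over the 10 genes was 3.77% with vehicle and 9.54% with Tributyrin, against 8.29% and 10.8% over all genes. With 3 mice per group a single animal can set these values, the 10 genes share the same 6 libraries, and Tributyrin replicate 3 stood apart on the measure of long against short genes. This pattern was noticed in these data and was not tested.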
